A study of Homo sapiens with 6 samples.

Results

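Genes for RNA-binding proteins, splicing factors, RNA helicases, translation initiation factors and the microRNA machinery were examined in HepG2 cells that had received an siRNA against H19. Members were chosen by symbol: a gene of the authors' deposited table was taken if its name began with one of the family prefixes of these proteins (SRSF, HNRNP, DDX, DHX, RBM, SF3A or SF3B, PRPF, SNRP, CELF, PCBP, EIF, IGF2BP, DICER1, TNRC6, AGO, CNOT, LSM and the like), with antisense transcripts left out. The rule found 22 of the 1998 listed genes and dropped 1 antisense transcript, RBPMS-AS1. The table holds only genes that the authors called as changed, so a member is by construction a called gene. The call depends on the size of the change and its error, so sizes are given as a description. The rule does not use the direction, but it was set with earlier results of these data known, so directions are a description as well.

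HepG2 is a human liver cancer line with many hepatocyte functions. The 2 groups were cells given a control siRNA (siCon, 3 libraries) and cells given an H19 siRNA (siH19, 3 libraries), both collected at 48 h. H19 is an imprinted long noncoding RNA that carries the precursor of miR-675 and can bind let-7 microRNAs. The series asks which transcripts depend on it in liver-type cells. H19 is not among the listed genes, so how far it was depleted was not analysed here, and the group names follow the labels. All 8 hepatocyte-type genes fixed for a check of the label (ALB, AFP, APOA1, APOB, TTR, SERPINA1, HNF4A and FGB) were listed, with mean normalized counts from 793 to 240657 in the authors' deposited table. All 8 were lower in siH19, with log2 fold changes from -0.88 (TTR) to -0.33 (APOA1) in the authors' deposited table. Of 12 markers fixed for stellate, endothelial, blood and bile duct cells 4 were listed, and all 4 were lower as well: CD68 (-1.21), LYVE1 (-0.98), ACTA2 (-0.83) and LYZ (-0.64) in the authors' deposited table. Mean normalized counts of these 4 ran from 78.6 (LYVE1) to 20858 (LYZ), and LYZ lay above hepatocyte-type genes such as APOA1 (6439). A marker that was not listed was not called or not tested, which does not show that it was absent. The part of the listed markers in the results below was not tested. None of 5 neuronal RNA-binding protein genes was listed.

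RNA-binding proteins act at each step of a transcript's life. Small nuclear ribonucleoproteins (snRNPs) and their partner proteins recognise and remove introns, helicases rearrange RNA and RNA-protein complexes, and initiation factors bring the ribosome to the start codon. The microRNA machinery, with Dicer as the enzyme that cuts precursors and the TNRC6 (GW182) proteins as the link from Argonaute to the decay enzymes, lowers the output of target mRNAs.

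More of these genes were higher than lower in siH19, and the changes were small. Of the 22 genes 13 were higher in the authors' deposited table (59.1%), where 44.7% of all listed genes were higher, and 9 were lower (40.9%), where 55.3% of all listed genes were lower. The median log2 fold change was 0.30 over the 22 genes and -0.27 over all listed genes. No test was added to these counts, and the sizes were like those of other listed genes, with a median absolute log2 fold change of 0.42 (1.34-fold) against 0.45 (1.37-fold). Of the 22 genes 7 changed by at least 0.5 on the log2 scale in the authors' deposited table, against 41.2% of all listed genes, and 13 of the 22 had an adjusted p under 0.01, against 64.8%. Only EIF2S1 among the 22 reached a 2-fold change. The lean towards higher genes was smaller without 6 genes that have near copies in the genome: SNRPC (18 annotated pseudogenes of its name), EIF4EBP2, DHX9, DHX40, RBMS2 and DDX3Y. The other 16 were 8 higher and 8 lower, with a median of 0.02. That split and that median still lay above those of all listed genes (44.7% higher, median -0.27), from which genes with near copies were not removed.

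The 22 genes were well expressed. Their mean normalized counts ran from 181.71 to 12367.87 with a median of 1475 in the authors' deposited table, the median of all listed genes was 640, and 19 of the 22 lay at or above it. The 9 lower genes had a median mean count of 2526 and the 13 higher genes one of 901. Over all listed genes the order was the same, with medians of 772 for lower and 555 for higher genes. Since counts grow with transcript length, levels of different genes were compared per kilobase of the longest annotated coding transcript. On that scale SNRPC stood highest with 4089 normalized counts per kb, followed by EIF4G2 with 3091, and LSM11 stood lowest with 45.7.

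**Figure D1:**
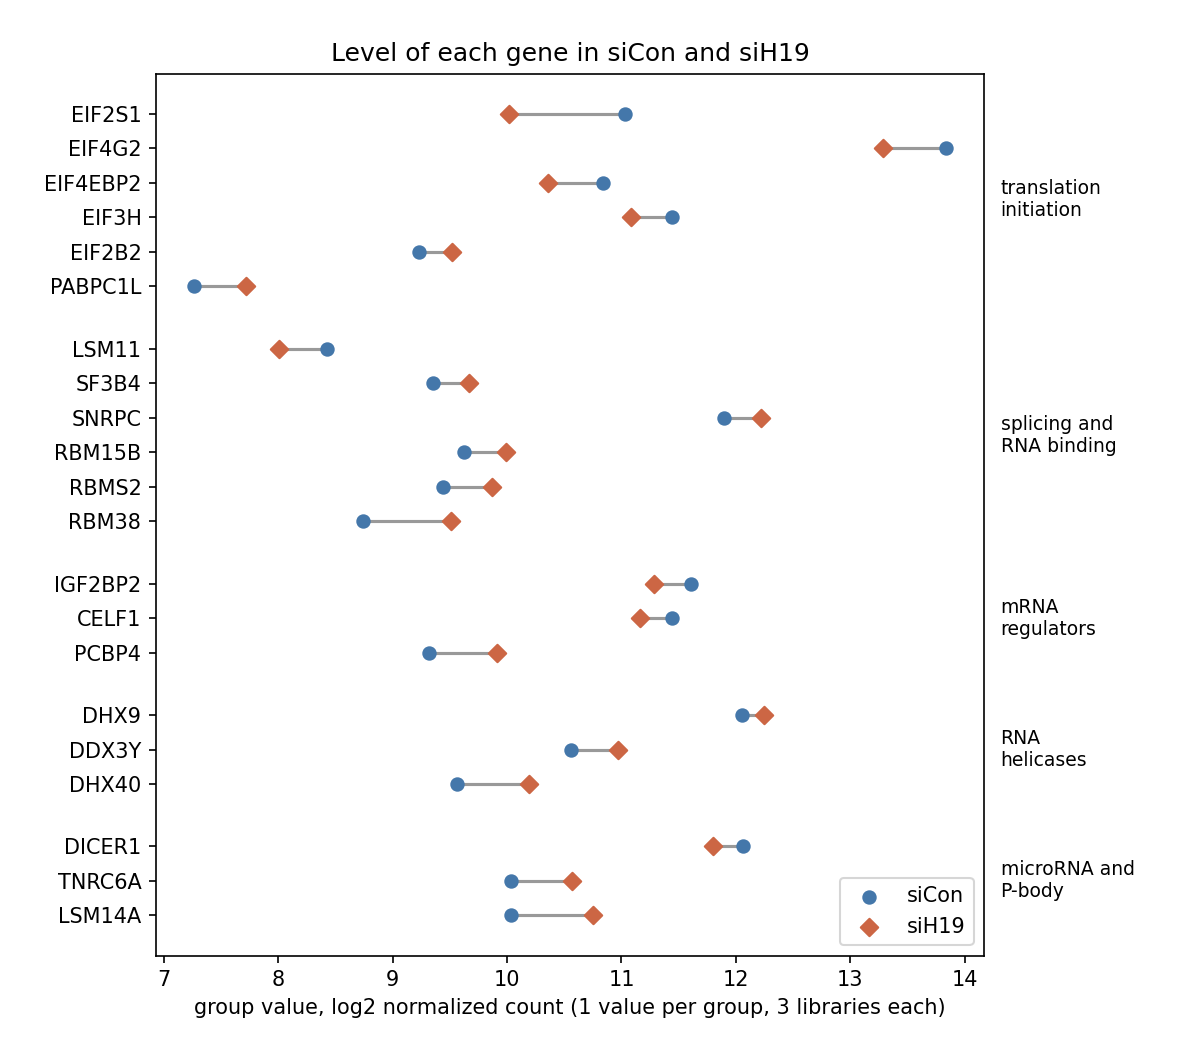
Group values of 21 of the 22 genes on a log2 scale of normalized counts, with circles for siCon and diamonds for siH19, arranged by role; each group has 1 combined value, so the spread between libraries is not shown. EIF2S1 has the longest bar, from 11.03 in siCon to 10.02 in siH19.

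Of the 6 translation initiation genes 4 were lower in siH19, a share near the 55.3% of all listed genes that were lower. EIF2S1 encodes the alpha subunit of eIF2, the factor that carries the initiator tRNA to the ribosome and whose phosphorylation slows translation under stress. Its log2 count was 11.03 in siCon and 10.02 in siH19 in the authors' deposited table, or 2091 and 1038 normalized counts. The log2 fold change of EIF2S1 was -1.01 ± 0.09 (SE) in the authors' deposited table, a 2.01-fold fall with an adjusted p written there as 0, and it ranked 75 among the 1998 listed genes by absolute size. Its approximate 95% interval, -1.19 to -0.83, did not meet that of any other of the 22 genes.

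The next fall was at EIF4G2 (DAP5), a relative of the scaffold eIF4G that lacks the part binding the cap-binding protein and serves other routes of initiation. EIF4G2 was the most abundant of the 22 by mean count, and its log2 count was 13.84 in siCon and 13.29 in siH19 in the authors' deposited table (-0.55 ± 0.08, adjusted p written as 0). EIF4EBP2 encodes an inhibitor that holds the cap-binding protein eIF4E, and it went from 10.84 to 10.36 in the authors' deposited table (-0.48 ± 0.13, adjusted p = 0.00388). EIF3H, a subunit of the scaffold eIF3, went from 11.44 to 11.08 in the authors' deposited table (-0.36 ± 0.08, adjusted p = 5.5e-05). The 4 lower genes thus include both factors that promote initiation and 1 inhibitor of it.

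The 2 higher genes of this class had lower counts. EIF2B2 is the beta subunit of eIF2B, which reloads eIF2 with GTP, and it went from 9.23 to 9.52 in the authors' deposited table (0.29 ± 0.09, adjusted p = 0.0142). PABPC1L, a cytoplasmic poly(A)-binding protein best known from oocytes, had the lowest mean count of the 22 and went from 7.26 to 7.72 in the authors' deposited table (0.46 ± 0.15, adjusted p = 0.0175). PABPC1L overlaps TOMM34 on the other strand, and TOMM34 went the opposite way in the authors' deposited table (-0.66 ± 0.09). As the sources used here do not give the use of strand in counting, reads of this pair may not be separable. Of the 22 genes 9 overlap another coding gene in the annotation, and PABPC1L is the 1 that overlaps a listed gene. Of the 56 protein-coding EIF symbols in GENCODE 29, these 5 EIF genes were listed (8.93%), where 9.46% of all protein-coding symbols were listed.

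All 4 copies of the heptamer CATCAAA in the 3′ untranslated region (UTR) of EIF2S1 are shown because EIF2S1 had the largest change and because this heptamer, together with GCAGTAC, was picked earlier from these same fold changes. The match therefore describes the genes and supports nothing. The sequences are windows of 30 bases from GENCODE 29 transcripts (GRCh38), 5′ to 3′ on the transcript strand, with the heptamer in capitals and its first base counted from the base after the stop codon.
EIF2S1, base 394, chr14:67383822-67383851, plus strand: tattcaagcaaaCATCAAAtaaatttctgg
EIF2S1, base 1448, chr14:67384876-67384905, plus strand: tgtctgttgaggCATCAAAaaaacaagttt
EIF2S1, base 2036, chr14:67385464-67385493, plus strand: tcttgaatctccCATCAAAgccttttcatt
EIF2S1, base 2668, chr14:67386096-67386125, plus strand: gaggcaggaagcCATCAAActaaacgtagt
EIF4G2, base 187, chr11:10797612-10797641, minus strand: atcatagtctacCATCAAAtattttaggag
EIF4EBP2, base 1292, chr10:70423027-70423056, plus strand: ttttcaaatttaCATCAAAgatacctgaag

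CATCAAA was found in 4 of the 22 genes (18.2%), and all 4 were lower in siH19, EIF2S1, EIF4G2 and EIF4EBP2 among them. Of all 328 listed carriers 239 (72.9%) were lower. The share of carriers was like that of all listed genes with a searched UTR, 17.5% of 1879, and 11.6% of 19053 annotated coding genes carried it. Number of copies and size of change did not go together across listed genes in a simple way. The median log2 fold change was -0.22 for the 1551 listed genes with no copy, -0.38 for 260 with 1, -0.40 for 53 with 2, -0.29 for 9 with 3 and -0.35 for the 6 with 4 or more, EIF2S1 among them. Those 6 genes included 2 that were higher.

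**Figure D2:**
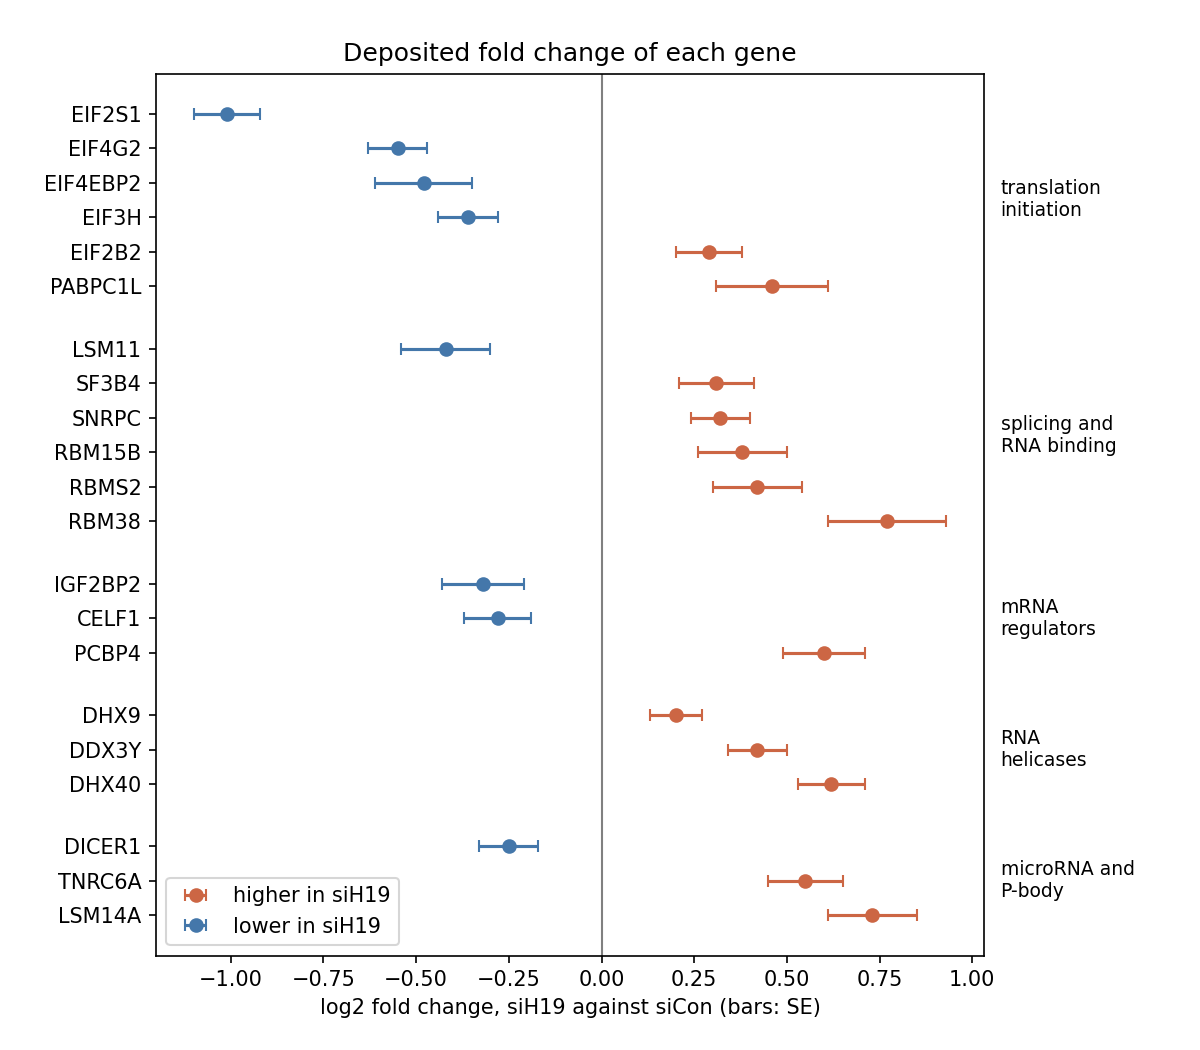
Log2 fold change of siH19 against siCon from the authors' deposited table for 21 of the 22 genes by role, with bars for the authors' SE. Points right of 0 are higher in siH19; all 3 helicases lie there, from 0.20 to 0.62, and 4 of the 6 translation genes lie left of 0.

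Of 7 genes for parts of snRNPs and for other RNA-binding proteins 5 were higher, where 44.7% of all listed genes were higher, and with so few genes no test was made. SNRPC encodes U1-C, a protein of the U1 snRNP that helps it hold the 5′ splice site, and its log2 count was 11.90 in siCon and 12.22 in siH19 in the authors' deposited table (0.32 ± 0.08, adjusted p = 0.000764). SF3B4 belongs to the SF3b complex of the U2 snRNP, which binds near the branch point, and went from 9.35 to 9.67 in the authors' deposited table (0.31 ± 0.10, adjusted p = 0.0171). LSM11 is a core protein of the U7 snRNP, which acts in histone mRNA 3′ end formation and not in splicing, and it fell from 8.43 to 8.01 in the authors' deposited table (-0.42 ± 0.12, adjusted p = 0.00594).

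All 3 listed RBM and RBMS genes were higher, where 44.7% of all listed genes were higher, and no test was made. They were 3 of 48 annotated (6.25%), where 9.46% of all protein-coding symbols were listed. RBM38, which binds mRNAs such as that of the cell cycle inhibitor CDKN1A and affects their stability, had the largest rise of the 22 genes. Its log2 count was 8.74 in siCon and 9.51 in siH19 in the authors' deposited table, or 428 and 729 normalized counts. The log2 fold change of RBM38 was 0.77 ± 0.16 in the authors' deposited table (1.71-fold, adjusted p = 4.9e-05), with the largest SE of the 22. RBMS2, a relative that binds single-stranded nucleic acid, went from 9.44 to 9.87 in the authors' deposited table (0.42 ± 0.12, adjusted p = 0.00634). RBM15B, an adaptor of the complex that writes N6-methyladenosine (m6A) on RNA, went from 9.62 to 9.99 in the authors' deposited table (0.38 ± 0.12, adjusted p = 0.0209).

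Several families of the rule had no listed gene. None of the 12 annotated SRSF genes and none of the 27 HNRNP genes was in the table, nor any of the 11 CPSF and CSTF, 11 CNOT, 4 AGO, 4 ELAVL, 4 UPF, 3 PUM, 2 NOVA or 2 RBPMS genes. A gene outside the table was not called or not tested there, which does not show that its level was the same in both groups. Over all families of the rule 22 of 313 annotated coding symbols were listed (7.03%), where 9.46% of all 19936 coding symbols were listed, a base that counts genes silent in HepG2 as well.

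**Figure D3:**
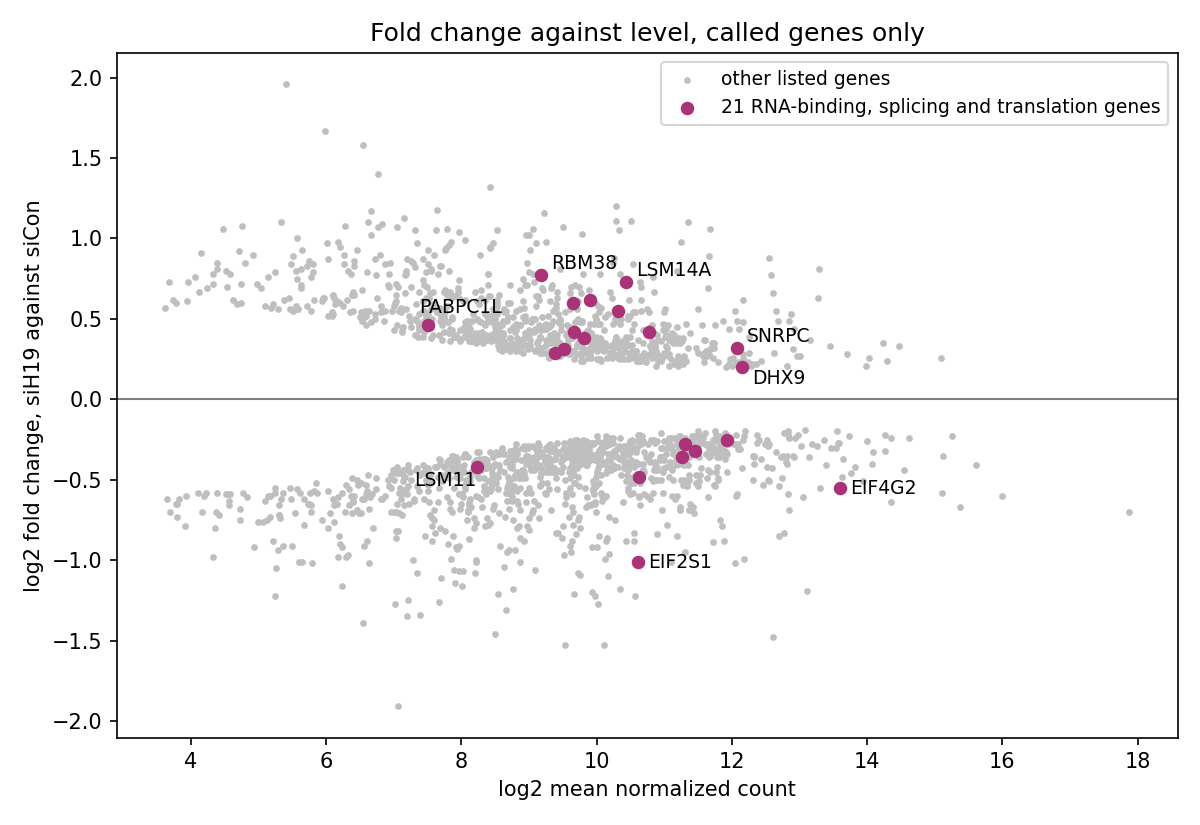
Log2 fold change of siH19 against siCon (y) over log2 mean normalized count (x) for listed genes (grey) and 21 of the 22 genes (purple), from the authors' deposited table. The empty band around 0 is where no gene was called; EIF2S1 at -1.01 lies farthest from 0 among the purple points, and EIF4G2 lies farthest right.

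Of the 3 regulators of mRNA stability and translation, 2 were lower, where 55.3% of all listed genes were lower, and no test was made. PCBP4, a protein that binds C-rich RNA, was higher and went from 9.32 to 9.91 in the authors' deposited table (0.60 ± 0.11, adjusted p = 3e-06). IGF2BP2 binds and stabilises mRNAs, IGF2 mRNA among its known targets, and went from 11.61 to 11.28 in the authors' deposited table (-0.32 ± 0.11, adjusted p = 0.0183). CELF1 binds GU-rich RNA, promotes decay in the cytoplasm and regulates splicing in the nucleus. It went from 11.44 to 11.16 in the authors' deposited table (-0.28 ± 0.09, adjusted p = 0.0146).

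All 3 listed RNA helicases were higher in siH19, in a table where 44.7% of genes were higher. All 3 are also among the 6 genes with near copies in the genome named above. DHX40, a DExH-box helicase whose role is little known, went from 9.56 to 10.19 in the authors' deposited table (0.62 ± 0.09, adjusted p written as 0). DDX3Y is the Y-linked copy of DDX3X, a DEAD-box helicase with a role in translation, and went from 10.56 to 10.97 in the authors' deposited table (0.42 ± 0.08, adjusted p = 5e-06). DDX3X was not in the table, and how reads shared by such close relatives were assigned is not given in the sources used here. DHX9, a helicase that unwinds double-stranded RNA, had the smallest change of the 22 and went from 12.05 to 12.25 in the authors' deposited table (0.20 ± 0.07, adjusted p = 0.0421). Of 39 annotated DDX symbols 1 was listed (2.56%) and of 16 DHX symbols 2 were (12.5%), where 9.46% of all protein-coding symbols were listed.

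The 3 listed genes of the microRNA machinery and of processing bodies, the granules that hold silenced mRNAs, moved in both directions. DICER1 went from 12.06 to 11.80 in the authors' deposited table (-0.25 ± 0.08, adjusted p = 0.0118). TNRC6A went from 10.03 to 10.57 in the authors' deposited table (0.55 ± 0.10, adjusted p = 1e-06). LSM14A, a processing-body protein that represses translation, had the second largest rise of the 22 and went from 10.03 to 10.75 in the authors' deposited table, or from 1046 to 1722 normalized counts (0.73 ± 0.12, adjusted p written as 0).

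Sites for the microRNAs tied to H19 were searched in the same UTRs, since H19 carries miR-675 and binds let-7. The mature sequences, from RefSeq (GRCh38.p14), are shown with the seed (bases 2 to 8) in capitals, because the searched heptamers are the reverse complements of these seeds.
hsa-let-7a-5p: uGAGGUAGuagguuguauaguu
hsa-miR-675-5p: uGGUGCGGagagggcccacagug
hsa-miR-675-3p: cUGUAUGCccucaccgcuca

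The let-7 heptamer CTACCTC was found in the UTRs of 8 of the 22 genes (36.4%), against 12.7% of 1879 listed genes and 9.59% of annotated coding genes. Among the 8 carriers 4 were higher (RBM38, PCBP4, RBMS2 and RBM15B) and 4 were lower (EIF4G2, EIF4EBP2, LSM11 and IGF2BP2). The UTRs of the 22 genes were longer than those of listed genes, with medians of 2388 and 1599 bases. Of the 657 listed genes with a UTR at least as long as the members' median 23.6% carried CTACCTC, and of the 11 members with such a UTR 4 did. The carriers PCBP4 (609 bases), EIF4G2 (766), RBM38 (1487) and IGF2BP2 (1792) had shorter UTRs. The part of UTR length in the share of carriers was not tested. The windows of the carriers with the largest changes in each direction are shown, with the heptamer in capitals.
RBM38, base 1340, chr20:57409174-57409203, plus strand: ctccctccggacCTACCTCagggagctgag
PCBP4, base 269, chr3:51957818-51957847, minus strand: gggcagggggccCTACCTCctcagctctgt
EIF4G2, base 479, chr11:10797320-10797349, minus strand: ttgcctgtatttCTACCTCtagtaatgggc
EIF4EBP2, base 1220, chr10:70422955-70422984, plus strand: gaatttctctccCTACCTCcctcactttct

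The miR-675-5p heptamer CCGCACC was found in 1 of the 22 genes, RBM38, and in 4.47% of listed genes. The miR-675-3p heptamer GCATACA was found in none of the 22 and in 8.09% of listed genes. The heptamer GCAGTAC, picked from these fold changes as CATCAAA was, lay in 2 of the 22 genes (9.09%), against 9.53% of listed genes, and both were higher in siH19. Of all 179 listed carriers 150 (83.8%) were higher. The median log2 fold change was -0.30 for the 1700 listed genes with no copy, 0.41 for 166 with 1 and 0.58 for 11 with 2, LSM14A among these. Its copies are shown for LSM14A, the second largest rise, and for DDX3Y.
LSM14A, base 268, chr19:34227644-34227673, plus strand: agttaaactaaaGCAGTACttcagtgggac
LSM14A, base 1833, chr19:34229209-34229238, plus strand: catggcatacctGCAGTACcccttacaata
DDX3Y, base 93, chrY:12918203-12918232, plus strand: cttcaagaacttGCAGTACattaccagctg

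**Figure D4:**
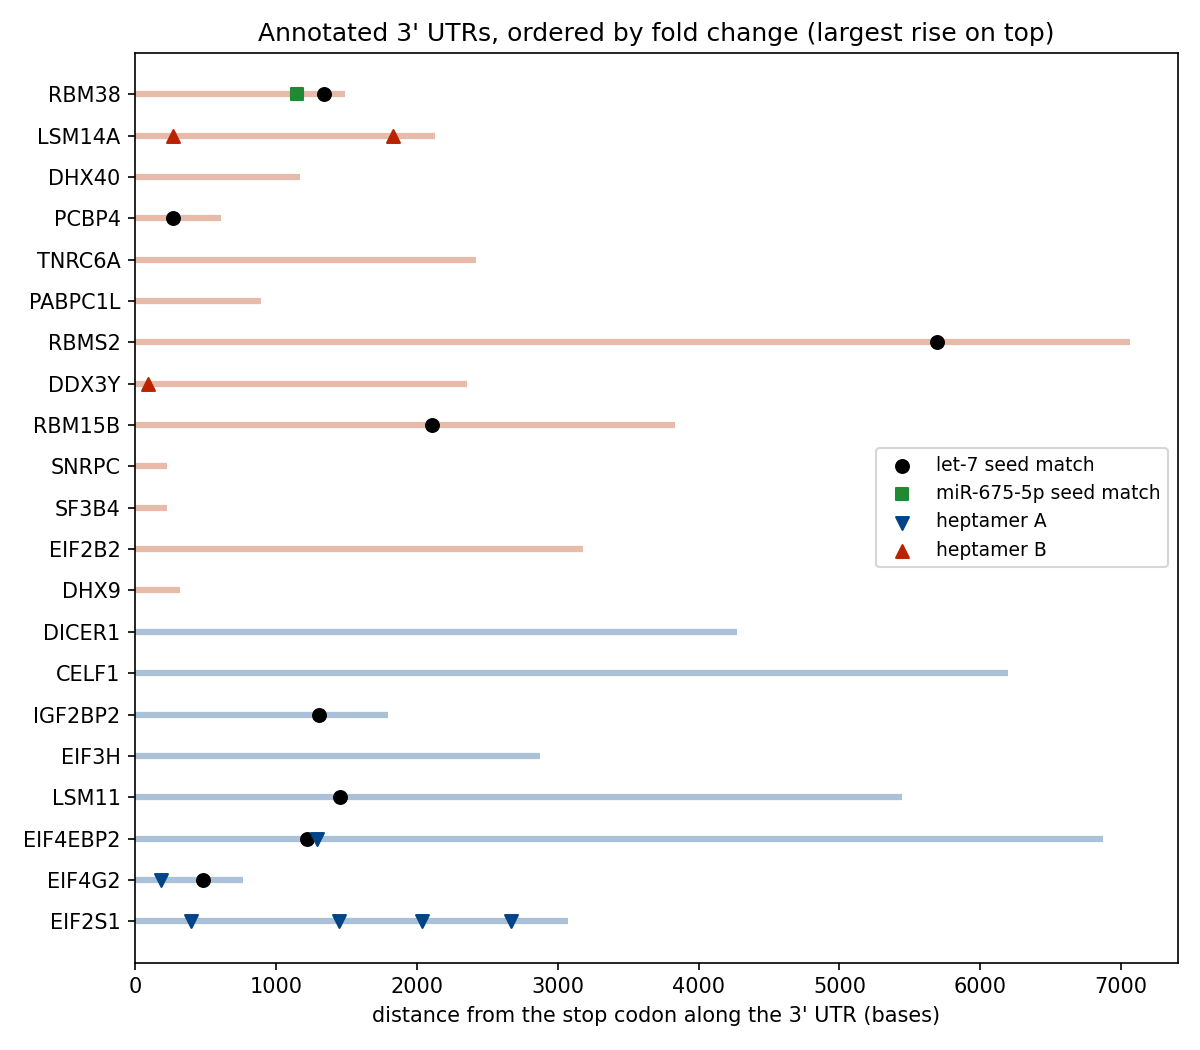
Annotated 3′ UTRs of 21 of the 22 genes to scale, ordered from the largest rise (top) to the largest fall (bottom), red for higher and blue for lower in siH19; x is the distance from the stop codon in bases. Circles mark let-7 heptamers and the square the miR-675-5p heptamer; heptamer A is CATCAAA, in 3 of the lower genes shown, and heptamer B is GCAGTAC, in 2 higher genes.

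Other genes of RNA processing, taken from 7 lists with 230 symbols that the family rule does not cover, were split evenly. Of these symbols 29 were listed in the authors' deposited table, 15 higher and 14 lower, where 44.7% of all listed genes were higher. Of 69 other splicing factors 7 were listed, 5 higher and 2 lower. The 2 lower ones were the muscleblind proteins MBNL1 and MBNL2, which regulate splicing of many tissue-specific exons and oppose CELF proteins at some of them. MBNL1 went from 11.52 to 10.51 in the authors' deposited table (-1.01 ± 0.12, adjusted p written as 0), the same size of fall as EIF2S1, and MBNL2 went from 11.10 to 10.51 (-0.58 ± 0.09). MBNL1 carries 1 and MBNL2 carries 2 copies of CATCAAA, which was picked from these same fold changes. Among the higher genes PTBP3 carries 2 copies of CATCAAA and also 2 of GCAGTAC, and RBFOX2 carries 1 copy of CATCAAA. The higher ones included LUC7L, a U1 snRNP partner (0.43 ± 0.12), PTBP3 (0.32 ± 0.11), RBFOX2 (0.26 ± 0.10) and PSPC1 (0.25 ± 0.09) in the authors' deposited table.

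The lists of decay genes and of 3′ end formation and export genes are described by their counts, with no test of either or of the difference between them. Of 47 decay and surveillance genes 7 were listed, 6 lower and 1 higher, where 55.3% of all listed genes were lower. The falls in the authors' deposited table were led by BTG3 (-0.69 ± 0.14), of the family that binds the CCR4-NOT deadenylase, and ZFP36 (-0.65 ± 0.18), which destabilises mRNAs with AU-rich elements. The nuclear exonuclease XRN2 was the 1 that rose in the authors' deposited table (0.24 ± 0.07). All 4 listed genes of the 27 in 3′ end formation and export were higher, where 44.7% of all listed genes were higher, led in the authors' deposited table by the export adaptor ALYREF (0.56 ± 0.15) and by CASC3, of the exon junction complex (0.40 ± 0.08).

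The remaining lists held few listed genes, and no test of them was made. Over all listed genes 44.7% were higher and 55.3% lower, and 9.46% of all protein-coding symbols were listed. Of 41 genes of granules and translation control 6 were listed, 2 higher and 4 lower, with LARP6 at 0.98 ± 0.19 and the cytoplasmic polyadenylation factor CPEB2 at -0.86 ± 0.17 as extremes in the authors' deposited table. Both had low mean normalized counts, 72.31 for LARP6 and 131.26 for CPEB2, against a median of 640 over all listed genes. Both listed m6A genes of 16 were lower in the authors' deposited table, the reader YTHDF3 (-0.44 ± 0.09) and the demethylase ALKBH5 (-0.26 ± 0.08). The writer adaptor RBM15B is not in this list, and its values are given above. From a list of 11 kinases of SR proteins and their relatives, both listed genes, DYRK2 (0.29 ± 0.11) and DYRK1A (0.25 ± 0.09), were higher in the authors' deposited table. Of 19 microRNA processing genes outside the rule 1 was listed, LIN28B (0.26 ± 0.08 in the authors' deposited table), whose UTR holds 4 let-7 heptamers. Carriers of the let-7 heptamer in these lists went both ways. Among the lower genes TRIM71 (-0.52 ± 0.12), of granules and translation control, holds 6 and CPEB2 holds 1. Among the higher genes DYRK1A holds 2 and DYRK2 holds 1.

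**Figure D5:**
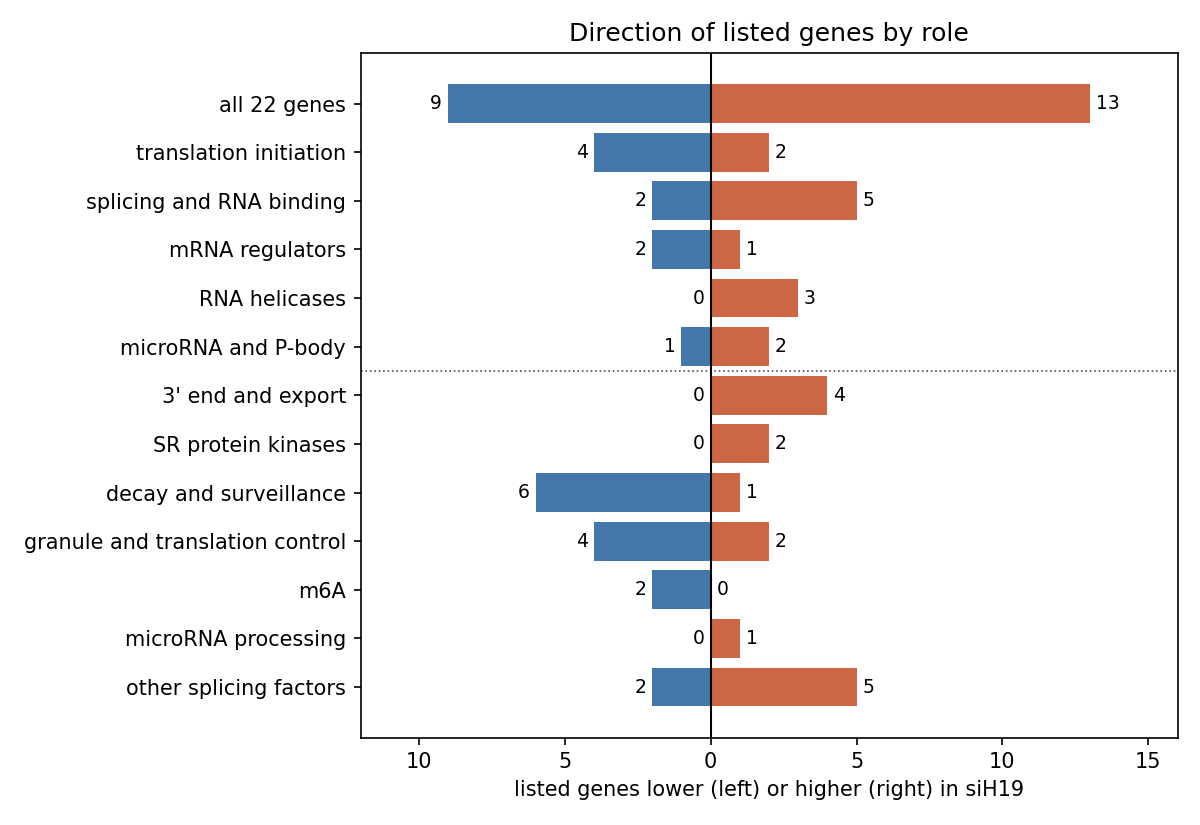
Number of listed genes lower (left, blue) or higher (right, red) in siH19 for the 22 genes and their roles (above the dotted line) and for 7 lists of other RNA-processing genes (below it). The 3 helicases and the 4 genes of 3′ end formation and export are all on the right, and 6 of 7 decay genes are on the left.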

How the data were processed

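Ribosomal RNA-depleted total RNA of 3 siCon and 3 siH19 libraries was sequenced with a strand-specific kit, per the labels' protocols. The submitters' processing notes name STAR 2.5.0a, Cufflinks 2.2.1, DESeq2 1.0.0 and build hg19, with no role or order. Per the file headers, the authors deposited log2 counts per group, a mean count (a normalized signal, not whole reads), a log2 fold change, the error of that change and q values (adjusted p-values). A q written as 0 lies below the table's precision, since the smallest other value was 1e-06. The largest q was 0.0498. Values per library were not used, so depth is unknown. The labels do not say whether libraries came from separate cultures, so p-values may reflect technical spread only.

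Members and lists were chosen with earlier results of these data known. Every member is named but 1, which, like 1 gene of the other lists, is not reported here, with the 2 largest changes per other list and further examples. Counts, medians and intervals (fold change ± 1.96 SE) were computed with pandas 2.3.3 and no test was added. The scripts were tested on simulated data. UTRs are the longest per gene among complete coding transcripts of GENCODE 29 (GRCh38, not the authors' build). By symbol, 1921 of the 1998 listed genes matched it. Alternatives were adjusted p, mean count and fold thresholds and the removal of overlapping, duplicated or loosely matching members.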

Additional observations from a re-analysis of the deposited data

How the results depend on the processing

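Higher genes outnumbered lower ones under the planned filters tried on the 22 genes. At an adjusted p under 0.01, 8 higher and 5 lower genes were left, at 0.001 there were 7 and 3, and at an absolute log2 fold change of at least 0.5 there were 5 and 2. The median log2 fold change was 0.42 at an adjusted p under 0.01 and 0.48 at 0.001. Direction and median over all listed genes were not computed under these filters. Unfiltered, 44.7% of all listed genes were higher, with a median of -0.27. Whether the lean changes with the filter was therefore not tested. It stayed between 0.29 and 0.31 under the filters on mean count and without overlapping genes or EIF4EBP2. An alternative added after seeing the data, without the 5 genes that have annotated pseudogenes of their own name (SNRPC, EIF4EBP2, DHX9, DHX40 and RBMS2) and without DDX3Y, left 8 higher and 8 lower genes with a median of 0.02. The cause of that even split was not tested. Of the single genes, 9 of 22 did not pass an adjusted p of 0.01 and the fold change taken from the group values is the same quantity within 0.01, so that alternative tests nothing. No paired analysis was possible because the table has 1 value per group, and for the same reason no replicate could be left out. Depth per library is unknown.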

Other observations

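Some RNA-linked genes outside the family rule and the 7 lists were looked up after their values had been seen. SNRNP27, a protein of the U4/U6.U5 tri-snRNP of the spliceosome, rose from a log2 count of 10.32 in siCon to 10.94 in siH19 in the authors' deposited table (0.62 ± 0.11, adjusted p = 2e-06). AKAP8, a nuclear anchoring protein that also binds RNA (0.51 ± 0.12), CAPRIN2 (0.33 ± 0.09), INTS3 of the Integrator complex (0.34 ± 0.10) and the cold-inducible RNA-binding protein CIRBP (0.28 ± 0.09) were higher in the authors' deposited table. The pseudouridine synthase PUS10 went from 9.29 to 8.28 in the authors' deposited table (-1.01 ± 0.12, adjusted p written as 0), the same size of fall as EIF2S1 and MBNL1.

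Both iron regulatory proteins, which bind iron-responsive elements in mRNAs such as those of ferritin, were slightly lower in siH19. The values in the authors' deposited table were -0.29 ± 0.10 for ACO1 (adjusted p = 0.0236) and -0.25 ± 0.08 for IREB2 (adjusted p = 0.0216).

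Genes of the stress response that acts through phosphorylated eIF2 were looked up beside the fall of EIF2S1, after their values had been seen. Those named are examples from no fixed list, and they moved in both directions. In the authors' deposited table ASNS, asparagine synthetase, was higher (0.46 ± 0.10). DDIT3 (-0.42 ± 0.16, adjusted p = 0.0421) and DNAJC3, an inhibitor of eIF2 kinases (-0.25 ± 0.08), were lower in the authors' deposited table.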
